A study of Megathyrsus maximus with 33 samples.

Results

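The transcripts described here are the 100 most abundant of the leaf transcriptome of Guinea grass (Megathyrsus maximus, also called Panicum maximum), a tropical forage grass with C4 photosynthesis. They were chosen by their measured level, as the 100 of 39208 transcripts with the largest mean log2 value over 32 RNA-seq libraries. The transcript c92877_g1 was set aside by the rule and ranked 351, so its exclusion did not alter the list. Transcripts are assembled contigs and carry the identifiers of the assembly. None of the 100 has a gene name or a sequence match in the sources used here, so they are given by identifier, rank and value. A supplementary list of the study holds 2 of the 100, without annotation. Their ranks and mean levels chose them and are a description.

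A leaf of a grass draws a large part of its messenger RNA from a small number of genes, above all genes for light harvesting, carbon fixation and the synthesis of protein. In a C4 leaf this set also includes the enzymes that concentrate CO2 in the bundle sheath. Because a library holds a limited number of reads, the share taken by its largest transcripts sets how many reads are left for all others. Which of these functions any member has was not analysed here, and the labelled tissue could not be checked against leaf markers because the tables carry no gene names.

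The plants grew in 16 field plots in which CO2 was released into the open air and the canopy was warmed with infrared heaters. Of these, 4 plots received elevated [CO2] and warming (eCeT), 4 received warming of 2 °C at ambient [CO2] (eT), 4 received 600 ppm CO2 without warming (eC), and 4 were held at ambient [CO2] and temperature (C). Each of the 4 rings held 1 plot of each treatment, and each plot was sampled at time point B, labelled 50 days of treatment, and at time point A, labelled 30 days. A library is made from the pooled youngest fully expanded leaves of 1 plot, which leaves 4 libraries in each of 8 groups. The libraries held between 6148492 and 15638550 recovered reads, and their TMM-scaled (effective) size was 0.614 to 1.42 times that number. The 3 libraries with the lowest ratio, at 0.614 for eCeT ring 4 at B, 0.699 for C ring 3 at B and 0.723 for eT ring 3 at A, were the 3 in which the members held the largest share. In bulk RNA a smaller number of cells of a type cannot be told apart from less RNA per cell.

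The members were unequal among themselves. By mean share of a library, 4 of the 100 lay at 1% or more, 84 between 0.1% and 1%, and 12 under 0.1%. The most abundant, c78052_g1, took 14.8% of a library on average and ranged from 1.66% to 37.4%. It was followed by c43596_g9 with 4.43% (0.609% to 11.4%), c95994_g1 with 2.12% (1.17% to 2.97%) and c89333_g1 with 1.00% (0.576% to 1.47%). The next 6 were c91508_g3, c72206_g1, c93512_g2, c89150_g1, c88094_g1 and c76702_g1, with mean shares between 0.469% and 0.631%. The largest member was the first transcript of 30 of 32 libraries, and c95994_g1 was first in the other 2, eCeT ring 4 at A and eC ring 2 at B.

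Of the 100 members, 42 were among the top 100 of every library. The member with the fewest reads in any library still had 2068. At the edge of the list, c63875_g1, c92213_g1 and c76542_g1 (ranks 98 to 100) had mean log2 values of 9.73, 9.68 and 9.67, and c134982_g1, c77672_g1 and c80365_g1 (the next 3 ranks) had 9.67, 9.65 and 9.64, so the step at the limit is small. A typical member varied less than a typical transcript of the series. The residual SD of the log2 value around the 8 group means had a median of 0.34 over the members, 0.55 over all transcripts and 0.33 over the 100 transcripts that follow in rank. The steadiest members were c82588_g3 (rank 85, residual SD 0.19) and c95604_g3 (rank 75, 0.19), and the most variable were c28707_g1 (rank 84, 1.36) and c78052_g1 (1.12).

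**Figure D1:**
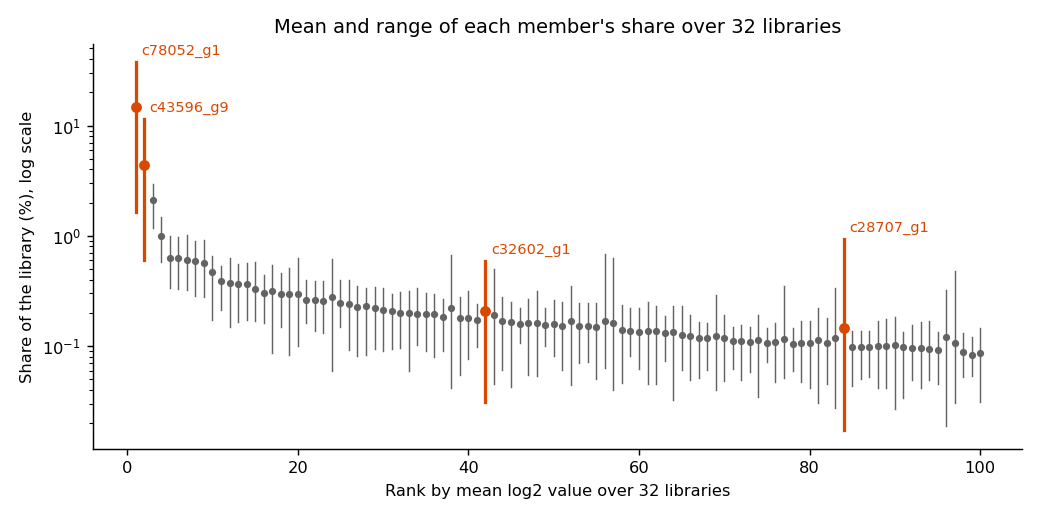
Mean share (points) and lowest to highest share (lines) of each of the 100 members over 32 libraries, in percent of the library on a log scale, against the rank by mean log2 value. In orange are c78052_g1, c43596_g9, c32602_g1 and c28707_g1, whose shares spanned 18.7-fold to 54.5-fold between libraries.

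A rank by reads favours long transcripts, and the FPKM table allowed a comparison per length. The relative length of a transcript, its reads per FPKM scaled to the members, had a median of 1.00 over the members and 0.701 over 20524 other transcripts. By mean FPKM, 67 of the members were also among the top 100. The largest member was also first by FPKM (mean 23652 FPKM) at a relative length of 3.64. The second by FPKM was c89150_g1 (mean 22021 FPKM), which is the shortest member at a relative length of 0.172. By reads c78052_g1 held 14.8% and c89150_g1 held 0.593%. The largest gap between both ranks was that of c28707_g1, rank 84 by the log2 value and 630 by FPKM, at a relative length of 4.39.

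Together the 100 members held between 27.0% and 63.1% of a library, whereas 100 of 39208 transcripts are 0.255% of the table. At time point B the members held 41.6%, 34.6%, 48.5% and 63.1% in the eCeT plots of rings 1 to 4, 51.3%, 37.3%, 53.1% and 45.1% in the eT plots, 30.4%, 27.0%, 40.4% and 45.1% in the eC plots, and 39.0%, 42.6%, 61.1% and 45.0% in the C plots. At time point A they held 32.0%, 40.1%, 30.5% and 30.2% in the eCeT plots, 41.1%, 33.4%, 53.5% and 45.0% in the eT plots, 34.7%, 39.4%, 46.6% and 49.7% in the eC plots, and 32.5%, 28.8%, 38.8% and 36.2% in the C plots. The treatments overlapped at both time points, and eCeT ring 4 and C ring 3 at B stood highest. In these 2 libraries 5 and 4 transcripts held 50% of the reads, against 734 in eC ring 2 at B, the library with the lowest summed share.

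**Figure D2:**
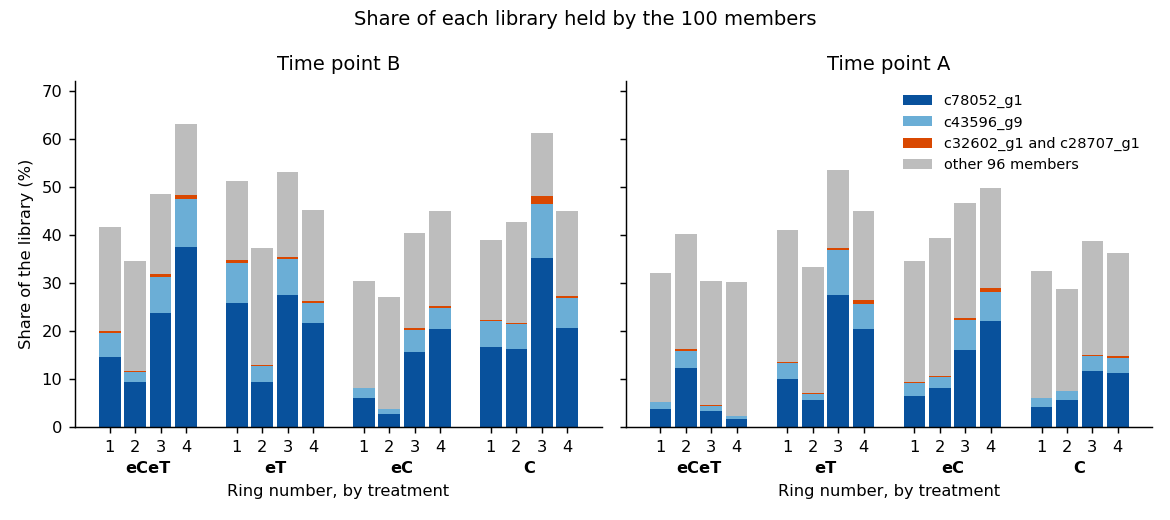
Share of each library in percent held by c78052_g1, c43596_g9, the pair c32602_g1 and c28707_g1, and the other 96 members, stacked, for the 4 rings of each treatment at time points B and A. The bars reach 27.0% to 63.1%, and most of their spread lies in the blue part, c78052_g1 and c43596_g9.

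The comparison of treatments asked whether elevated [CO2] or warming altered the share of the transcriptome held by the members. No treatment contrast of the summed share passed an exact two-sided permutation test. At time point B the mean was 46.9% ± 12.2 in eCeT plots, 46.7% ± 7.11 in eT plots and 35.7% ± 8.43 in eC plots, against 46.9% ± 9.79 in C plots (SD, n = 4 each; exact permutation p = 1, 1 and 0.2 against C). At time point A it was 33.2% ± 4.67 in eCeT plots, 43.2% ± 8.37 in eT plots and 42.6% ± 6.83 in eC plots, against 34.1% ± 4.38 in C plots (SD, n = 4 each; exact permutation p = 0.83, 0.114 and 0.114). The smallest p that 4 against 4 plots allow is 0.0286. Over 22 tests of the summed share and of the largest member, no treatment contrast had a Benjamini-Hochberg adjusted p below 0.503.

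Warmed plots held 46.8% ± 9.24 at B, against 41.3% ± 10.4 in unwarmed plots (SD, n = 8 each; exact permutation p = 0.283), and 38.2% ± 8.26 at A, against 38.3% ± 7.01 (exact permutation p = 0.978). Plots at elevated [CO2] held 41.3% ± 11.4 at B, against 46.8% ± 7.92 at ambient [CO2] (SD, n = 8 each; exact permutation p = 0.28), and 37.9% ± 7.40 at A, against 38.7% ± 7.90 (exact permutation p = 0.848). These differences were smaller than the spread between plots. Of the alternatives run for warming at B, the FPKM table alone passed the threshold, with warmed plots higher by 4.07 percentage points (exact permutation p = 0.0248). There 2 unwarmed libraries at B were left out because their header lines contradict each other, among them C ring 3, the highest unwarmed library. Without C ring 3 alone the difference of the summed share at B was 7.86 percentage points, and without eCeT ring 4 it was 2.79, neither past the threshold.

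Between the time points the same 16 plots were compared. The summed share was 44.1% ± 9.90 at B, against 38.3% ± 7.40 at A (SD, n = 16 each), and it was higher at B in 10 of 16 plots (two-sided exact permutation within plots, p = 0.071). The largest member had the larger difference. The share of c78052_g1 was 2.77% to 37.4% (median 18.6%) at B, against 1.66% to 27.5% (median 9.05%) at A. Its mean share was 18.9% ± 9.69 at B, against 10.6% ± 7.48 at A, a difference of 8.30 percentage points in the direction of 10 of 16 plots (exact permutation p = 0.00644, adjusted p = 0.142 over the 22 tests). The ranges overlapped. With c78052_g1 left out of both sums, the difference of the summed share was 0.37 percentage points (exact permutation p = 0.805). By FPKM the summed share differed by -0.12 percentage points (exact permutation p = 0.928). The FPKM comparison could not pair the C plots of rings 3 and 4. By reads the summed share of these plots was higher at B by 22.3 and 8.84 percentage points. The FPKM difference is thus not over the same plots.

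The direction of this change was not the same in all treatments. The share of c78052_g1 was higher at B in 4 of 4 C plots and in 0 of 4 eC plots. In the eC plots of rings 1 to 4 it was 6.04%, 2.77%, 15.6% and 20.4% at B, against 6.51%, 8.12%, 16.1% and 22.0% at A. In the C plots it was 16.7%, 16.3%, 35.1% and 20.6% at B, against 4.22%, 5.55%, 11.7% and 11.4% at A. From A to B the eC plots changed by -5.35 to -0.46 percentage points, and the C plots by 9.21 to 23.4. The change from A to B averaged -2.0 ± 2.3 percentage points in eC plots and 14.0 ± 6.45 in C plots (SD, n = 4 each; exact permutation p = 0.0286, the smallest that 4 against 4 plots can give). This comparison was chosen after the values were seen. Adjusted over the 6 comparisons of eCeT, eT and eC with C, for this share and for the summed share, p was 0.0857. In the eCeT and eT plots the share was higher at B in 3 of 4 plots each, and the change of neither treatment was apart from that of C (exact permutation p = 0.914 and 0.114).

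**Figure D3:**
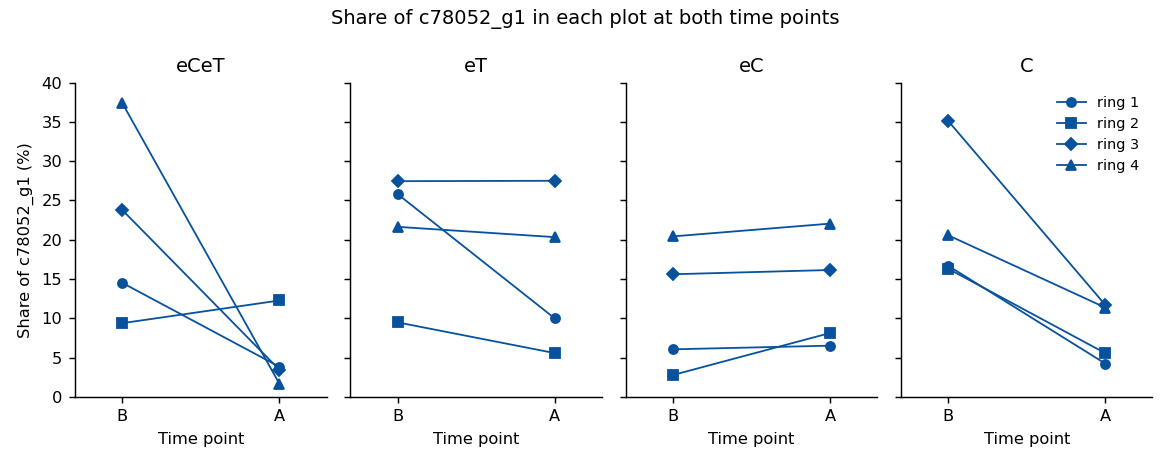
Share of c78052_g1 in percent of the library in each plot at time points B and A, 1 line per plot, with the ring given by the symbol. The lines of the 4 C plots all stand higher at B, and those of the 4 eC plots all stand lower at B, between 2.77% and 20.4%.

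A set of 4 members varied together between plots. After the treatment means were subtracted within each time point, c43596_g9 followed c78052_g1 with Pearson's r = 0.972 at B and 0.972 at A (n = 16 plots each; Spearman's rho = 0.956 and 0.947), c32602_g1 (rank 42) with r = 0.971 and 0.977 (rho = 0.977 and 0.947), and c28707_g1 (rank 84) with r = 0.926 and 0.856 (rho = 0.968 and 0.859). The permutation p was 5e-05 for c28707_g1 at A and 1e-05 for the others, the smallest that 100000 permutations can give, and the adjusted p over 198 relations was at most 0.00165. Without the 2 plots farthest from the median of c78052_g1, r stayed between 0.879 and 0.966. Of the 99 other members only these 3 had r over 0.8 at both time points, or 3.03%, against 0.135% of all other transcripts of the table (53 transcripts). The 53 include the 3 members and were counted at any abundance, so the 2 percentages are not matched for abundance. The first transcript past the list's limit, c134982_g1, also had r over 0.8 at both time points. The set is therefore bounded by the limit of the list. The points share their library, so both values of a pair come from the same reads and the same scaling.

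**Figure D4:**
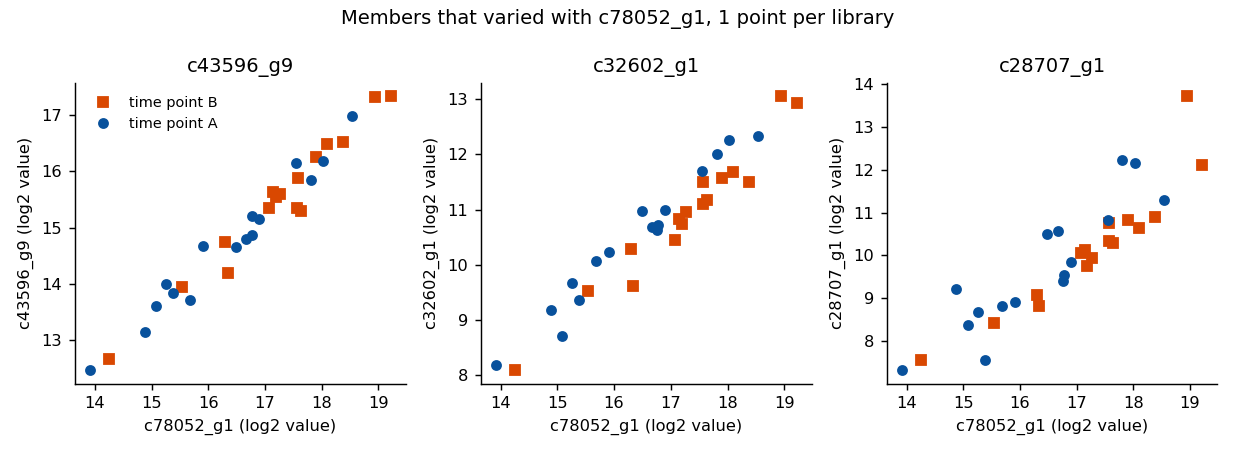
Log2 values of c43596_g9, c32602_g1 and c28707_g1 against that of c78052_g1, 1 point per library, with the 16 libraries of time point B as squares and the 16 of time point A as circles. In each panel both time points lie along a common line, most narrowly for c43596_g9.

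These 4 transcripts differed widely in level, and their proportions varied less between libraries than their shares. Relative to c78052_g1 the reads of c43596_g9 were 31.4% in the median library (19.6% to 42.3%), those of c32602_g1 were 1.5% (0.851% to 2.20%), and those of c28707_g1 were 0.760% (0.440% to 2.67%). Of the 4, 3 are among the longest members: the relative length was 4.57 for c43596_g9, 4.39 for c28707_g1 and 3.64 for c78052_g1, and it was 0.792 for c32602_g1. Together they held 3.75% to 48.3% of a library at B (24.9% ± 12.8), against 2.32% to 37.3% at A (14.3% ± 9.95; SD, n = 16 each). The other 96 members held 13.1% to 24.4% at B (19.2% ± 3.23), against 16.1% to 28.7% at A (24.01% ± 3.54), and their share was lower at B in 14 of 16 plots. With the 4 taken out of the library total, the 96 held 25.6% ± 1.78 at B, against 28.0% ± 2.45 at A, lower in 12 of 16 plots. The 4 were grouped after their values were seen, so these sums carry no test.

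The rings differed in the same transcripts. Averaged over both time points, c78052_g1 held 10.9% ± 4.95 in ring 1, 8.68% ± 2.67 in ring 2, 20.1% ± 6.46 in ring 3 and 19.4% ± 2.43 in ring 4 (SD over the plots of 4 treatments). Ring took 73.4% of the squares about the treatment means (exact permutation of the rings within treatments, p = 0.0101, adjusted p = 0.0201 over 2 measures). The summed share was 37.8%, 35.4%, 46.5% and 44.9% in rings 1 to 4 (exact permutation p = 0.0287). By these means rings 3 and 4 were high and rings 1 and 2 low. In the eCeT plots at A rings 3 and 4 were instead the lowest, with 3.82%, 12.3%, 3.44% and 1.66% of c78052_g1 in rings 1 to 4. For c78052_g1 the exact p was 0.0264 with time point B alone and 0.19 with A alone, and for the summed share it was 0.0551 and 0.28.

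Across single transcripts, ring was tested on the log2 values of the 16 plot means with limma, and 3 of 100 members passed an adjusted p under 0.1, against 1.24% of all transcripts. These were c28707_g1 (limma adjusted p = 0.0174), c32602_g1 (0.0672) and c76542_g1 (0.0919). The first 2 belong to the set that varied with c78052_g1: c28707_g1 averaged 0.0743%, 0.0669%, 0.232% and 0.214% in rings 1 to 4, and c32602_g1 averaged 0.148%, 0.132%, 0.271% and 0.280%. The third had the opposite order, with 0.105%, 0.101%, 0.0736% and 0.0655%. On this scale c43596_g9 and c78052_g1 did not pass (limma adjusted p = 0.25 and 0.429). Without TMM scaling 20 members passed, against 8.04% of all transcripts. With time point A alone 0 passed, against 0.0383%, and with B alone 1, against 0.865%.

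Time point had the widest effect on single members. In limma, 64 of 100 members were called at B against A (adjusted p under 0.1), 62 lower and 2 higher, while 43.2% of all 39208 transcripts were called, 19.9% lower and 23.3% higher. Of the 100 transcripts next in rank, 63 were called, 6 of them higher. The median log2 fold change was -0.39 over the members and 0.05 over all transcripts. After quantile normalization, which gives every library the same set of values and so leaves the top ranks no common change, 45 members were called, 27 higher and 18 lower, with a member median of 0.01. With FPKM values 71 were called, 0 of them higher. The shares of all transcripts called under quantile normalization and with FPKM are not given here, so both counts stand without a background. The fallers stood in all parts of the list, with 4 among ranks 1 to 10, 28 among ranks 11 to 50 and 30 among ranks 51 to 100. Their log2 fold changes lay between -1.93 and -0.25 (median -0.51), and 9 were below -1. No member had time points that did not overlap over the 16 plots each, against 38 of all 39208 transcripts. Of the fallers, 14 were lower at B in all 16 plots, for which the share over all transcripts was not computed.

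**Figure D5:**
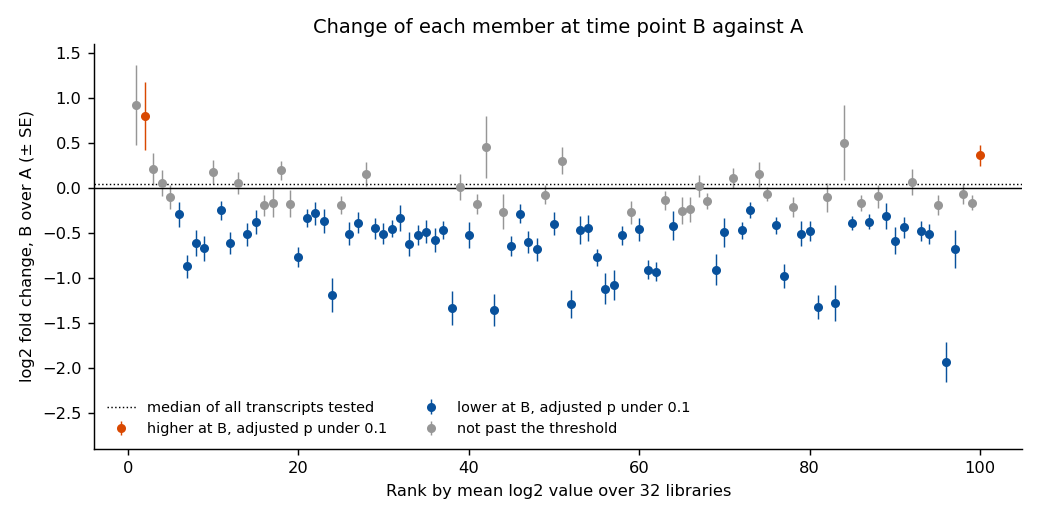
Log2 fold change of each member at time point B over A with its standard error, from limma, against its rank. Blue points are the 62 members called lower at B, orange points the 2 called higher, and the dotted line is the median of all transcripts, 0.05.

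The largest falls were those of c94637_g1, c75382_g2 and c55309_g1. The share of c94637_g1 (rank 96) was 0.0190% to 0.127% (median 0.0433%) at B, against 0.0483% to 0.322% (median 0.163%) at A, and it was lower in 16 of 16 plots. Its log2 fold change was -1.93 ± 0.22 (SE, limma adjusted p = 1.42e-07). The share of c75382_g2 (rank 43) was 0.0453% to 0.202% (median 0.0969%) at B, against 0.109% to 0.499% (median 0.266%) at A, again lower in 16 of 16 plots, with a log2 fold change of -1.36 ± 0.18 (limma adjusted p = 1.04e-06). For c55309_g1 (rank 38) it was 0.0414% to 0.220% (median 0.124%) at B, against 0.113% to 0.674% (median 0.248%) at A, with a log2 fold change of -1.33 ± 0.19 (limma adjusted p = 3.91e-06). The ranges of all 3 overlapped between the time points. Each passed under all 43 alternatives that were run.

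Among the 10 most abundant members, 4 were called lower at B, those of ranks 6 to 9. The log2 fold change was -0.87 ± 0.13 for c93512_g2, -0.62 ± 0.14 for c89150_g1 and -0.67 ± 0.13 for c88094_g1 (SE; limma adjusted p = 6.19e-06, 0.00126 and 0.000251). The share of c93512_g2 was 0.326% to 0.606% at B, against 0.363% to 1.02% at A, and its log2 value was lower at B in 16 of 16 plots. A smaller fall of c72206_g1, -0.29 ± 0.14 (limma adjusted p = 0.0994), passed in 20 of the 43 alternatives and had the other sign after quantile normalization (0.12). The log2 fold changes of c95994_g1 (0.21), c89333_g1 (0.05), c91508_g3 (-0.10) and c76702_g1 (0.17) did not pass (limma adjusted p = 0.312 to 0.81).

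Of the 2 members called higher at B, c43596_g9 had a log2 fold change of 0.80 ± 0.37 (limma adjusted p = 0.0936) and passed in 21 of the 43 alternatives. Its share was 0.921% to 11.4% (median 5.09%) at B, against 0.609% to 9.29% (median 2.94%) at A. The other, c76542_g1 (rank 100), had 0.36 ± 0.12 (limma adjusted p = 0.0183), with 0.0422% to 0.147% at B, against 0.0311% to 0.112% at A. The largest member had a log2 fold change of 0.93 (limma adjusted p = 0.105) and c32602_g1 and c28707_g1 had 0.46 and 0.50 (limma adjusted p = 0.306 and 0.364), none past the threshold.

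Warming at time point A was the treatment effect with the most calls among the members: 5 of 100 passed, 4 higher and 1 lower in warmed plots, against 3.77% of all transcripts (1.44% higher and 2.32% lower). With ring as a block 10 passed, 5 higher and 5 lower, for which the share of all transcripts is not given here. The share of c55309_g1 was 0.327%, 0.214%, 0.593% and 0.674% in eCeT plots and 0.218%, 0.333%, 0.444% and 0.573% in eT plots of rings 1 to 4, against 0.236%, 0.340%, 0.208% and 0.171% in eC plots and 0.143%, 0.113%, 0.196% and 0.260% in C plots. The warmed plots of rings 3 and 4 were highest, all above the highest unwarmed plot (0.340%), and those of rings 1 and 2 lay within the range of the unwarmed plots. The log2 fold change was 1.02 ± 0.27 (limma adjusted p = 0.0475) and passed in 22 of 28 alternatives run for this contrast.

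The other members called higher with warming at A changed by a like amount or less. The share of c92928_g5 (rank 56) was 0.217%, 0.175%, 0.402% and 0.298% in eCeT plots and 0.217%, 0.231%, 0.286% and 0.689% in eT plots, against 0.165%, 0.156%, 0.131% and 0.0728% in eC plots and 0.148%, 0.143%, 0.151% and 0.270% in C plots. Its log2 fold change of 1.01 ± 0.24 (limma adjusted p = 0.0271) passed in all 28. For c87452_g2 (rank 97) the share was 0.0793% to 0.484% in warmed plots, against 0.0307% to 0.143% in unwarmed plots, with a log2 fold change of 1.09 ± 0.30 (limma adjusted p = 0.0593, passed in 18 of 28). The fourth, c93773_g1, is outside the rule for named transcripts and is given because it completes the count, with a log2 fold change of 0.62 ± 0.19 (limma adjusted p = 0.0833). The fall was that of c75188_g2 (rank 28), with 0.0830% to 0.230% in warmed plots, against 0.170% to 0.339% in unwarmed plots and a log2 fold change of -0.68 ± 0.19 (limma adjusted p = 0.0617, passed in 18 of 28). Without the eT plot of ring 3 the count was 1, and without the eT plot of ring 1 it was 15. Without the 3 libraries of lowest effective size it was 1. The shares of all transcripts called in these fits are not given here, so the counts do not show whether the members differed from the rest.

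At time point B no member passed for warming, against 0.0459% of all transcripts. The log2 fold changes there were positive for 88 of 100 members (median 0.29), against 50.5% of all transcripts (median 0.00). Under 5 other scalings the count of positive members was 59 to 92. In 84 of 100 members the log2 fold change was larger at B than at A, for which the share over all transcripts is not given here. Under the 5 other scalings the median of this difference was 0.14 to 0.39 over the members. Over all transcripts it was -0.15 to 0.085. The difference of the warming effect between the time points was, however, called for 0 of 100 members and 0% of all transcripts (limma). Members of 1 library share its scaling, so their common sign counts them as 1 observation per library and not as 100.

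For eCeT against C at B, 1 of 100 members passed, against 0.309% of all transcripts (0.265% higher). This was c66978_g1 (rank 45), with 0.160%, 0.205%, 0.136% and 0.142% in the eCeT plots of rings 1 to 4, against 0.138%, 0.123%, 0.0426% and 0.0796% in the C plots. Rings 3 and 4 of C were lowest, and the groups overlapped only through C ring 1. The log2 fold change was 0.95 ± 0.23 (limma adjusted p = 0.0889), and it passed in 9 of 20 alternatives. In eCeT against C at A 0 members passed, against 1.4% of all transcripts, with 78 of 100 log2 fold changes above 0. Under the 5 other scalings 43 to 78 were above 0. Medians there were -0.05 to 0.25 over the members and -0.04 to 0.04 over all transcripts. The share above 0 over all transcripts is not given here.

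The remaining contrasts called 0 of 100 members in limma. For eC against C at A, where 0% of all transcripts passed, 94 of 100 log2 fold changes were positive (median 0.41, against -0.01 over all transcripts). The count of positive members was 50 to 94 under the 5 other scalings, and the median over all transcripts was -0.34 without TMM scaling. For eC against C at B, where again 0% passed, 66 were positive, and 65 to 92 under the other scalings. For eT against C at A (0.0485% of all transcripts) and at B (0.0179%), 77 and 73 were positive. Under the other scalings 28 to 77 were positive at A and 58 to 80 at B, the 28 without TMM scaling. For elevated [CO2] at A (0%) and at B (0.0051%), 77 and 73 were positive, and 60 to 84 and 65 to 88 under the other scalings. For these contrasts the share of positive values over all transcripts is not given here, and the sign counts were not tested. The contrasts against C within a time point share the same 4 C plots.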

How the data were processed

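Leaf RNA of 16 plots was sequenced at both time points, in 4 treatments with 4 plots each (32 libraries). The pooled library used only for the assembly was not used here. The authors assembled the reads de novo and deposited log2 values of TMM-scaled reads for 39208 transcripts (reads plus 0.5, per 1e6 of effective library size, after voom) and FPKM for 45073. The aligner and the counting program are not given in the sources used here. Of the deposited FPKM columns, 3 of the control have header lines that name different samples and were left out, so 29 were used.

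Reads were recovered from the log2 steps and were whole within 0.02 for 100% of values up to 1000 reads (96.2% of all values). A share is 2 to the power of the log2 value as a percent of its library's total. Shares were compared with exact two-sided permutation tests, within plots for time, at p under 0.05. The deposited log2 values of all transcripts were fitted in limma (version 3.58.1, under R 4.3.3) by 8 group means over 32 libraries, with a variance trend and Benjamini-Hochberg adjustment over all 39208, at an adjusted p under 0.1. FPKM were tested as log2(FPKM + 1). The tests were first tried on simulated data. The changes from A to B in each treatment against C were tested by permutation in scipy 1.17.1. All other permutation tests were run in numpy 2.4.6 (Python 3.11.15). Tables were handled in pandas 2.3.3 and numpy, and plots were drawn in matplotlib 3.10.9.

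Replicates are separate plots, numbered by ring, with the leaves of a plot pooled. The pairing of time points comes from the plot numbers in the labels. The deviations of a plot at B and at A from the group means correlated with r = -0.0225 to 0.162. Time point B is 50 days by the labels, but the sources date it differently. Transcripts named in the text are the 10 largest, for each contrast with calls the 3 largest rises and 3 largest falls among called members, the 2 steadiest and 2 most variable, and the 3 ranks on each side of the list's limit; c93773_g1 and those that varied with c78052_g1 or were called for ring were added after the values were seen. The members, lists and tests were chosen with earlier results of these data known. Alternatives were other scalings, filters, list sizes, tables and models, the ring or plot as a block, and each library left out.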

Additional observations from a re-analysis of the deposited data

Results flagged for a closer look

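In eC and C plots the change from time point A to B went opposite ways: lower in 4 of 4 eC plots and higher in 4 of 4 C plots. The mean change in eC plots minus that in C plots was -19.78 percentage points for the summed share and -15.96 for c78052_g1, each at the smallest exact permutation p that 4 against 4 plots can give (0.0286; 0.0857 adjusted over 6). For the summed share it was -38.88 with TMM-scaled library size and -10.29 without c78052_g1, where 3 of 4 C plots were higher at B (exact permutation p = 0.0286 each). It was -5.89 for c43596_g9, -0.27 for c32602_g1 and -0.35 for c28707_g1, which were not tested and share their libraries with c78052_g1. In the FPKM table, where both time points of only 2 C plots could be used, the differences were -6.28 for the summed share and -3.06 for c78052_g1 (exact permutation p = 0.133 each, the smallest that 4 against 2 can give), and the summed share was higher at B in 0 of 4 eC plots and 1 of 2 C plots.

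Single plots stood apart from the other 3 of their group in 13 of 184 groups of values (7.07%), where chance flags about 1 in 20. Of these, 3 were in eT ring 2 at B, which was high for c95994_g1 (2.97%, others at most 1.99%), c89333_g1 (1.47%, others at most 0.935%) and c91508_g3 (0.846%, others at most 0.565%). In C ring 3 at B, c32602_g1 was 0.594% and c28707_g1 0.938%, with the other C plots at most at 0.232% and 0.183%. In eT ring 4 at A, c92928_g5 was 0.689% and c87452_g2 0.484%, with the others at most at 0.286% and 0.169%. The share of c92928_g5 was also high in C ring 4 at A (0.270%) and in eT ring 3 at B (0.159%), and that of c94637_g1 in C ring 1 at B (0.127%). Low values were those of c93512_g2 in eC ring 4 at A (0.363%, others at least 0.724%) and of c75188_g2 (0.197%) and c95604_g3 (0.0825%) in eC ring 4 at B.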

How the results depend on the processing

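Of the alternatives other than single libraries left out, 261 values answering a comparison kept their direction and their side of the threshold, and for transcripts named in the text and the added comparison of changes 192 did and 30 lost the threshold. The sign of the summed share's difference turned as follows. For eCeT against C at A it was 0.42 with TMM-scaled library size, 1.31 without c78052_g1 and 1.27 in the FPKM table; at B it was -0.53 with 50 members, -0.20 when ranked by mean share and -0.66 without the 3 libraries of low effective size (chosen after seeing the data). For eT against C at B it was 0.30 without c78052_g1, 3.74 in FPKM and 4.48 without those 3 libraries. For warming at A it was 1.41 with TMM-scaled size, 0.0054 without c78052_g1, 0.20 with 200 members, 0.036 when ranked by mean share and 0.026 in FPKM, and for warming at B 4.07 in FPKM passed. For [CO2] at A it was 1.304 without c78052_g1, 1.24 in FPKM and 0.95 without the 3 libraries, and at B 0.046 in FPKM. For B against A it was 7.54 with 50 members, past the threshold. It was -0.12 in FPKM, where the C plots of rings 3 and 4 could not be paired. For c78052_g1 the sign turned for eCeT against C at B (1.93 with TMM-scaled size, 1.76 in FPKM), eT against C at B (1.39 in FPKM, 3.24 without the 3 libraries) and warming at A (0.86 with TMM-scaled size, 0.24 in FPKM). The added change in eCeT minus C turned to -0.33 without c78052_g1. The cause was not tested.

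With each library left out in turn, the difference of the summed share ranged from -3.17 to 0.71 (eCeT against C at A), 5.78 to 12.5 (eT at A), 6.17 to 11.2 (eC at A), -5.39 to 4.74 (eCeT at B), -2.91 to 4.48 (eT at B), -14.3 to -6.50 (eC at B), -1.82 to 1.53 (warming at A), 2.79 to 7.86 (warming at B), -2.40 to 0.95 ([CO2] at A), -8.18 to -3.12 ([CO2] at B) and 3.99 to 7.01 (B against A). That of c78052_g1 ranged from -5.23 to -1.7 (eCeT at A), 3.75 to 11.1 (eT at A), 2.05 to 7.23 (eC at A), -6.28 to 3.41 (eCeT at B), -3.19 to 3.24 (eT at B), -14.03 to -6.64 (eC at B), -2.08 to 1.58 (warming at A), 1.802 to 6.65 (warming at B), -4.49 to -0.83 ([CO2] at A), -8.08 to -3.24 ([CO2] at B) and 6.47 to 9.21 (B against A). The added change in eCeT minus C ranged from -5.51 to 7.29 for the summed share and from -4.58 to 8.29 for c78052_g1. Counts of calls ranged from 1 to 15 (warming at A), 0 to 8 (eCeT against C at B) and 0 to 1 (eCeT at A). They ranged from 0 to 2 (eT at A), 0 to 3 (warming at B) and 59 to 72 (B against A). The shares of all transcripts called with each library left out are not given here.

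Ring numbers were not taken to pair the treatments, because over all transcripts the deviations in plots of 1 ring and time point correlated above 0.1 in only 14 of 48 pairs. In the shares themselves ring took 66.6% (summed) and 73.4% (c78052_g1) of the squares. With ring as a replicate block 10 members were called for warming at A (5 higher, 5 lower), without the share of all transcripts beside them. The block moved no other count of calls by over 1.5 times and no share across the threshold. For the shares of a treatment against C it could not have done so. Each ring then gives 1 pair of plots, too few pairs for an exact permutation p under the threshold. Those contrasts therefore do not show whether ring matters.

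Counts of members called for warming at A were 2 at an adjusted p under 0.05, 9 with a filter at 1 CPM, 1 without TMM scaling, 8 with quantile normalization, 2 in FPKM, 9 with voom on recovered reads, 3 without the variance trend, 9 with robust moderation and 1 without the 3 libraries. For eCeT against C at B the count was 2 when centred on the median and 0 at an adjusted p under 0.05, without TMM scaling, with quantile normalization, in FPKM, without the trend, with the libraries of 1 time point only and without the 3 libraries; for eCeT against C at A it was 1 with the filter, 2 with quantile normalization and 1 with voom. The filter left 27255 transcripts to test. For these treatment contrasts the shares of all transcripts called under each setting are not given here. The counts therefore do not show whether the members differed from the rest. For ring the count was 1 at 0.05 (0.413% of all transcripts) and 20 without TMM scaling (8.04%). It was 0 at A alone (0.0383%) and 1 at B alone (0.865%). Ring took 33.0% (A) and 59.3% (B) of the squares of the summed share and 38.6% (A) of those of c78052_g1, none past the threshold. The log2 fold change of c72206_g1 turned to 0.12 with quantile normalization.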
